A study of Mus musculus with 24 samples.

Results

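The genes described are Fga, Fgb and Fgg, which encode the 3 chains of fibrinogen, and Fn1, which encodes fibronectin. They were taken by symbol from the count table, where all 4 were found among 13686 genes, and all 4 were among the 11971 genes tested. The 4 were chosen by their measured levels across the diets, which were already known, so their levels and differences between diets are given as a description, with no p-value. Liver messenger RNA of male wild-type C57BL/6 mice, an inbred laboratory strain, was sequenced by QuantSeq, which counts tags from the 3′ end of transcripts. For 6 weeks the mice ate one of 3 oil-enriched diets, made with cottonseed oil (labelled CSO), with olive oil (labelled OO) or with safflower oil (labelled SFO), or they ate chow. The count table holds 6 CSO, 6 OO, 5 SFO and 6 chow libraries. The labels name 24 samples, and SFO 4, which the submitters set aside as a far outlier that may be contaminated, is not in the table. The labels state only that the samples are separate ones, so the p-values given for other genes reflect sample-to-sample spread that could be technical.

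Fibrinogen is made by hepatocytes as a molecule that holds a pair of each of the Aα, Bβ and γ chains, joined by disulfide bonds before secretion. Thrombin cleaves short peptides from the Aα and Bβ chains, after which the molecules assemble into fibrin, the mesh of a blood clot. Plasma fibronectin is also secreted by hepatocytes, and is cross-linked into clots and deposited in extracellular matrix. The fibrinogen genes are textbook acute phase genes, driven in hepatocytes by interleukin-6 through STAT3 and by factors of the C/EBP family. Tags at the 3′ end do not read the spliced exons that separate plasma fibronectin from the cellular form made by stellate and endothelial cells, so Fn1 values cover both.

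The promoters of the 3 chains are printed because the genes lie next to each other on mouse chromosome 3 and their transcripts moved together. Each window runs from 250 bases before to 50 bases after the transcription start, 5′ to 3′ on the gene's own strand, from RefSeq (GRCm38.p6). The positions are chr3:83025903-83026202 on the plus strand for Fga, chr3:83049814-83050113 on the minus strand for Fgb and chr3:83007474-83007773 on the plus strand for Fgg. Capitals mark matches to the motifs CTGGGAA (a motif of interleukin-6 responsive liver genes), TTCNNNGAA (STAT) and TTGCNNAA (C/EBP), searched on both strands.
Fga: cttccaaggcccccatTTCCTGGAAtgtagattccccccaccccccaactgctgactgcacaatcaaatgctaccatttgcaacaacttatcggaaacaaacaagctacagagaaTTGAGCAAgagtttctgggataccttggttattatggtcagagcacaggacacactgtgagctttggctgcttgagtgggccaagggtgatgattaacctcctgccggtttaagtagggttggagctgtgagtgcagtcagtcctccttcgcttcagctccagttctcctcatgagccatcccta
Fgb: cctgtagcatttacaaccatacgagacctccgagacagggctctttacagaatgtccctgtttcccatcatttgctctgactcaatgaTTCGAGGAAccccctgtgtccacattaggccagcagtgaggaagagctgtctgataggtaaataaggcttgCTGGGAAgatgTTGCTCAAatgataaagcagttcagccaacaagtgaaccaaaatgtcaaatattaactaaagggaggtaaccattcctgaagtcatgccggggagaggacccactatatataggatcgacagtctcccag
Fgg: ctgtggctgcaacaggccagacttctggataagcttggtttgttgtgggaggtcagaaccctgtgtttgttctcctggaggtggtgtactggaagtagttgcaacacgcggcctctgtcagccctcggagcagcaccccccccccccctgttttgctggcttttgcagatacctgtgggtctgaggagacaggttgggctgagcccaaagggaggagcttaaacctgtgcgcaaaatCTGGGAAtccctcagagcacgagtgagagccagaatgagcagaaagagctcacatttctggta
No marked match overlapped another. The Fgb window held all 3 motifs, with CTGGGAA starting 91 bases before the transcription start. The Fga window held TTCNNNGAA and TTGCNNAA, and the Fgg window held CTGGGAA only, starting 13 bases before the start. Of the 32851 mouse promoter windows of the same length, 11.1% held CTGGGAA, 8.3% TTCNNNGAA and 10.8% TTGCNNAA. The TATA sequence TATAAA, found in 13.6% of windows, was not in these letters in any of the 3. A match describes the sequence and is not evidence of a bound site.

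The libraries held 5428649 to 14930305 counts. The fibrinogen chains together took 1.02% to 2.91% of the counts of a library and Fn1 0.12% to 0.286%. The lowest count of a member in a library was 10781, for Fn1, where counting error alone is 0.963%, so depth does not limit these values. Levels are given as CPM, that is counts scaled to a common library total with a composition (TMM) factor. Differences between diets are on the log2 scale with their SE, from an edgeR quasi-likelihood model fitted to the 4 diets at once. A gene was called where its Benjamini-Hochberg adjusted p over the 11971 tested genes was under 0.05. For the 4 members, which were chosen with these differences known, a call and how often it was kept are description, not a test. Markers of hepatocytes, summed over 10 genes, ran from 126000 to 174000 CPM in CSO, 162000 to 216000 in OO, 142000 to 189000 in SFO and 131000 to 171000 in chow. The sum of 12 skeletal muscle markers had medians of 27.1 CPM in CSO, 3.27 in OO, 6.47 in SFO and 399 in chow, with the highest library, in chow, at 3080. Acta1, a muscle actin, passed 100 CPM in chow 3, chow 4, chow 5 and CSO 1, and results that rest on these 4 libraries are also given without them. In whole liver, fewer cells of a type and less RNA per cell cannot be told apart.

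Fga, the Aα chain, was highest on safflower oil. In CSO it had a lowest, median and highest level of 3559, 4174 and 5576 CPM. In OO these were 5116, 5954 and 6429 CPM. The 5 SFO libraries (1, 2, 3, 5 and 6) had 10730, 5383, 8438, 9815 and 5436 CPM, and in chow the lowest, median and highest were 3676, 4390 and 5461 CPM. SFO 1, 3 and 5 lay above every library of the other diets, whereas SFO 2 and 6 lay within the OO range and just below the highest chow library. The means were 4340 ± 743 CPM in CSO, 5860 ± 461 in OO, 7960 ± 2470 in SFO and 4380 ± 615 in chow (SD, n = 6, 6, 5 and 6).

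Fgb, the Bβ chain, had a lowest, median and highest level of 3085, 3619 and 4750 CPM in CSO. In OO these were 4352, 4979 and 5462 CPM. The SFO libraries, in the same order as above, had 9035, 5315, 7369, 7539 and 4552 CPM, and chow ran from 3023 over a median of 3451 to 4238 CPM. Every OO and every SFO library lay above every chow library, and the CSO and chow ranges overlapped. The means were 3710 ± 570 CPM in CSO, 4940 ± 479 in OO, 6760 ± 1810 in SFO and 3510 ± 451 in chow (SD).

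Fgg, the γ chain, had a lowest, median and highest level of 3242, 3745 and 4458 CPM in CSO. In OO these were 4594, 5329 and 6760 CPM. The SFO libraries had 10140, 6005, 7240, 9177 and 5337 CPM, and chow ran from 3517 over 3857 to 4663 CPM. All SFO libraries lay above chow, and all CSO libraries lay below OO and SFO. OO and chow overlapped by a single library on each side, OO 5 at 4594 CPM and chow 1 at 4663 CPM. The means were 3800 ± 516 CPM in CSO, 5430 ± 743 in OO, 7580 ± 2040 in SFO and 3940 ± 389 in chow (SD).

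Fn1 had another order of diets, with olive oil on top. Its lowest, median and highest levels were 1710, 2077 and 2409 CPM in CSO. In OO they were 2472, 2927 and 3076 CPM. The SFO libraries 1, 2, 3, 5 and 6 had 2188, 1830, 2329, 2780 and 2709 CPM, and chow ran from 1094 over 1578 to 1766 CPM. Every OO and SFO library lay above every chow library, and 5 of 6 CSO libraries did too. The means were 2050 ± 251 CPM in CSO, 2830 ± 237 in OO, 2370 ± 390 in SFO and 1500 ± 275 in chow (SD). Chow 4 and chow 5, with 1094 and 1267 CPM, were the lowest, and both are among the libraries with Acta1 over 100 CPM, but so is chow 3, which had the highest Fn1 of that diet at 1766 CPM. The part of muscle RNA in these values was not tested.

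**Figure D1:**
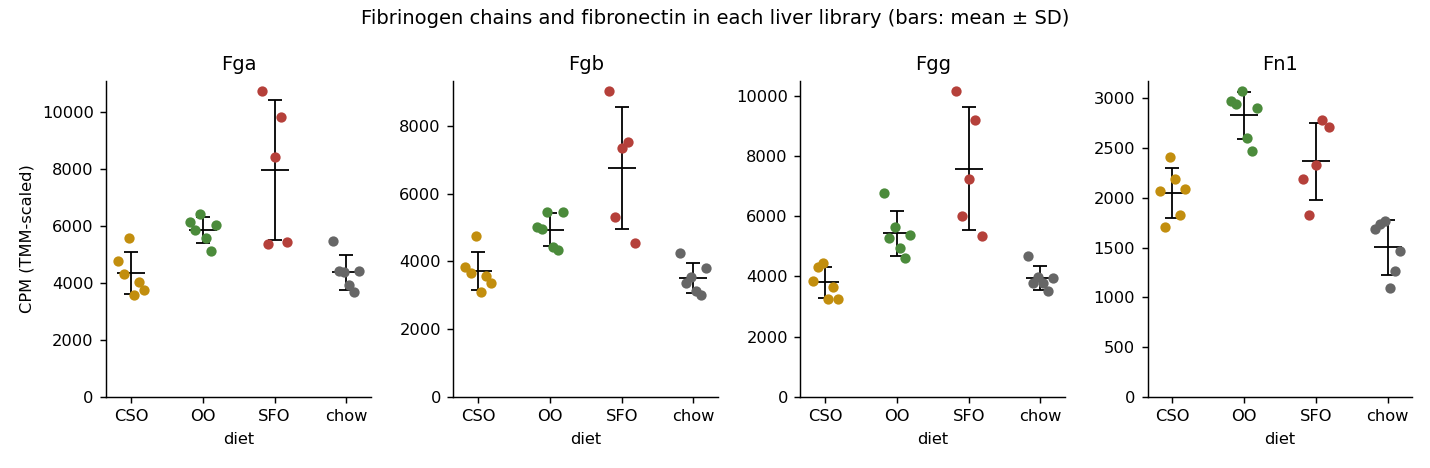
TMM-scaled CPM of Fga, Fgb, Fgg and Fn1 in each library (points) by diet, with mean ± SD (bars; n = 6 CSO, 6 OO, 5 SFO and 6 chow). The chains are highest and most spread in SFO, where Fga runs from 5383 to 10730 CPM, and Fn1 is highest in OO, from 2472 to 3076 CPM.

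The diets fell in the order SFO, OO and then CSO and chow for each of the 3 chains, and in the order OO, SFO, CSO and chow for Fn1. For each chain the neighbours CSO and chow differed in mean by less than the SD of either diet. OO and SFO overlapped for every member: SFO 2 and SFO 6 lay within the OO range for each chain, and SFO 5 and SFO 6 did for Fn1. For Fn1, SFO overlapped both of its neighbours, OO and CSO, while 1 CSO library, at 1710 CPM, lay within the chow range. The spread of the chains within a diet was also widest in SFO, where the SD was 31.0% of the mean for Fga, 26.8% for Fgb and 27.0% for Fgg. In OO the same share was 7.87% for Fga, 9.69% for Fgb and 13.7% for Fgg.

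Against chow, SFO had the largest differences of the chains, at 0.86 ± 0.14 for Fga, 0.94 ± 0.13 for Fgb and 0.94 ± 0.12 for Fgg. These are 1.82, 1.92 and 1.92 times the chow level. Fn1 differed by 0.66 ± 0.12, or 1.58 times. All 4 were called higher, in a comparison where 0.493% of tested genes were called higher. All 4 calls were kept when any single library was left out (11 fits). Without the 4 libraries with Acta1 over 100 CPM, Fgb (0.84 ± 0.16) and Fgg (0.89 ± 0.16) were still called, whereas Fga (0.75 ± 0.18) and Fn1 (0.55 ± 0.15) were not.

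OO against chow gave smaller differences of the chains and the largest of Fn1. The log2 fold changes were 0.42 ± 0.14 for Fga, 0.49 ± 0.12 for Fgb, 0.46 ± 0.12 for Fgg and 0.91 ± 0.12 for Fn1, that is 1.34, 1.41, 1.38 and 1.88 times chow. Fgb, Fgg and Fn1 were called higher, 3 of 4, where 1.72% of tested genes were. Fn1 was called in all 12 fits that left out 1 library, Fgb in 10 and Fgg in 9. Fgb lost its call without chow 4 or chow 5, and Fgg without chow 4, chow 5 or OO 1, while Fga gained a call without chow 1 and when OO and chow alone were fitted (0.42 ± 0.10). Without the 4 Acta1 libraries only Fn1 was called (0.80 ± 0.14), and Fgb (0.38 ± 0.15) and Fgg (0.40 ± 0.15) were not. OO 1, 2, 3 and 4 also had the lowest composition factors (0.889, 0.889, 0.811 and 0.943), while OO 5 had 1.033 and OO 6 0.974. With library totals alone the median of all genes moved by -0.18. On that scale the chains differed by 0.23, 0.31 and 0.27 for Fga, Fgb and Fgg with none called, and Fn1 by 0.73, still called.

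CSO against chow separated Fn1 from the chains. The differences were -0.01 ± 0.14 for Fga, 0.08 ± 0.12 for Fgb, -0.05 ± 0.12 for Fgg and 0.45 ± 0.12 for Fn1, which was 1.36 times chow. None of the 4 was called in this edgeR fit, where 0.209% of tested genes were called higher and 0.200% lower, and DESeq2 called Fn1 alone. Fn1 was just outside the threshold: it was called when CSO 2 was left out, when CSO and chow alone were fitted (0.45), with library totals (0.43) and in DESeq2's fit (0.44). Of the 12 fits that left out 1 library, only 1 called it. Without the 4 Acta1 libraries, which are all from chow and CSO, Fn1 was not called and the difference was smaller (0.325 ± 0.145). In the authors' deposited table, which gives chow over CSO, Fn1 had a log2 fold change of -0.44. Since all 3 comparisons share the chow libraries, their differences are given side by side and their likeness is not counted.

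Between oils, CSO was below SFO for the chains by -0.88 ± 0.14 (Fga), -0.87 ± 0.13 (Fgb) and -0.998 ± 0.123 (Fgg), all called lower, with and without the Acta1 libraries and in all 11 fits without 1 library. The background of lower calls in this comparison was 0.209%. Fn1 differed by -0.21 ± 0.12 and was not called. Against OO, CSO was lower by -0.52 ± 0.12 for Fgg and -0.47 ± 0.12 for Fn1, both called against a background of 0.835%, and by -0.44 ± 0.14 for Fga and -0.41 ± 0.12 for Fgb, which were not. Fgg kept that call in 9 of 12 fits without 1 library and Fn1 in 6 of 12, and both lost it without the Acta1 libraries and with library totals (-0.35 and -0.30). Without CSO 4, CSO 6 or OO 1 Fgg was not called, and without CSO 1, 2, 5 or 6 or OO 1 or 3 Fn1 was not. Fgb gained a call there without CSO 3 or OO 5. SFO against OO gave 0.44 ± 0.14 for Fga, 0.45 ± 0.13 for Fgb, 0.48 ± 0.12 for Fgg and -0.26 ± 0.12 for Fn1. Of these Fgg alone was called higher, against a background of 0.267%, and it lost the call without the Acta1 libraries or without any of OO 2, 3, 4 or 5 or SFO 1, 3 or 5. Without SFO 2 or SFO 6, Fga and Fgb were called there as well, and Fgb also with library totals (0.59) and by DESeq2 (0.47).

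**Figure D2:**
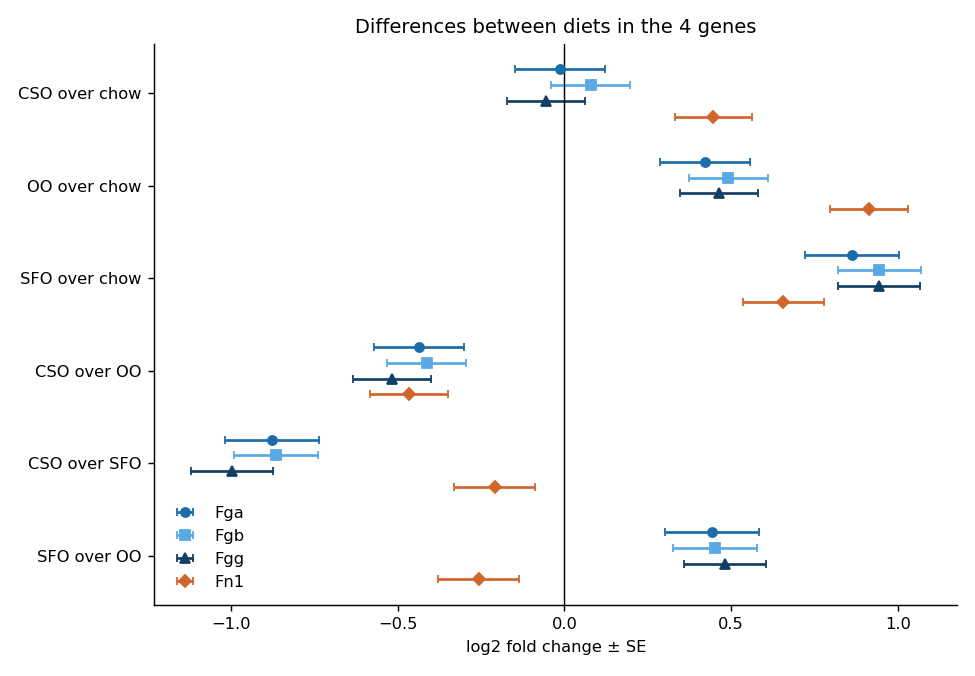
Log2 fold change ± SE (edgeR, 23 libraries) of the 4 genes in 6 comparisons, each named as the first diet over the second. The 3 chains lie close together in each comparison, while Fn1 lies apart from them in CSO over chow (0.45), in OO over chow (0.91), in CSO over SFO (-0.21) and in SFO over OO (-0.26).

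The ratios between the 3 chains varied less from library to library than the level of any chain. A tag is counted once per transcript whatever its length, so ratios of counts were taken directly. Fga over Fgb averaged 1.17 ± 0.0457 in CSO, 1.19 ± 0.0518 in OO, 1.17 ± 0.104 in SFO and 1.24 ± 0.0545 in chow (SD). Over all 23 libraries it ran from 1.01 to 1.31. The diets overlapped in this ratio, and the single lowest value was SFO 2. Fgg over Fgb averaged 1.03 ± 0.0852 in CSO, 1.10 ± 0.129 in OO, 1.12 ± 0.0882 in SFO and 1.13 ± 0.0599 in chow, with a range of 0.938 to 1.35 and its highest value in OO 1. On the log2 scale the SD over libraries was 0.085 for Fga over Fgb and 0.126 for Fgg over Fgb, against 0.427 for the level of Fgb itself.

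The ratio of Fn1 to Fgb varied more than those between the chains. Fn1 over Fgb averaged 0.559 ± 0.0897 in CSO, 0.573 ± 0.024 in OO, 0.373 ± 0.133 in SFO and 0.428 ± 0.0652 in chow (SD). Its SD on the log2 scale over all libraries was 0.377. The OO libraries, from 0.532 to 0.595, lay above all chow libraries, from 0.350 to 0.514. The SFO libraries 1, 2, 3, 5 and 6 had ratios of 0.242, 0.344, 0.316, 0.369 and 0.595, so that SFO 6, with the lowest Fgb of that diet, reached the highest OO value.

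**Figure D3:**
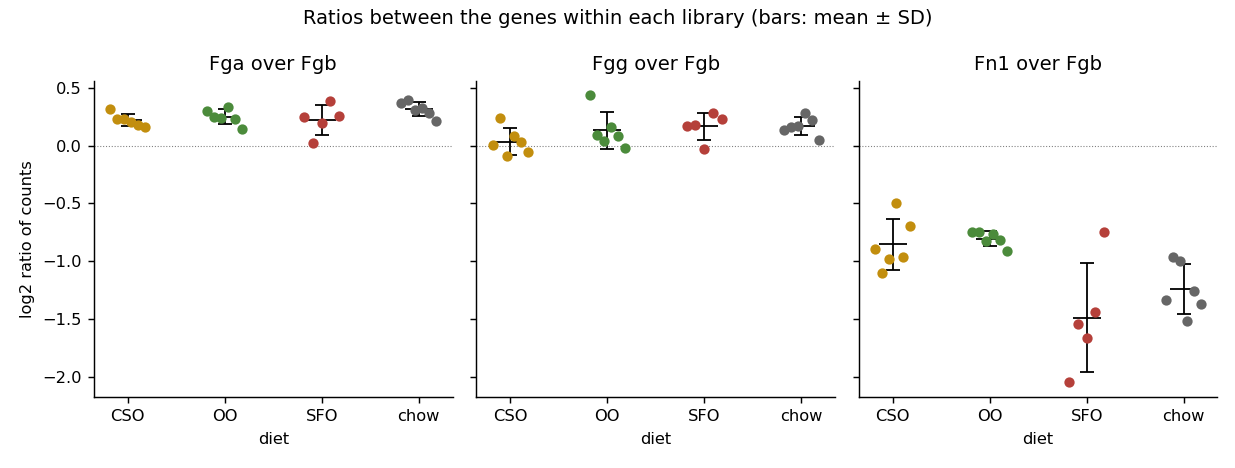
Log2 ratio of counts within each library (points) by diet, with mean ± SD (bars), for Fga, Fgg and Fn1 over Fgb. The chain ratios stay between -0.09 and 0.43 in all 23 libraries, and Fn1 over Fgb spans -2.05 to -0.50.

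Across the 23 libraries, log2 CPM of the chains correlated at a Pearson r of 0.98 (Fga and Fgb, Spearman rho 0.953), 0.964 (Fga and Fgg, rho 0.928) and 0.959 (Fgb and Fgg, rho 0.951). These pooled values include the differences between diets by which the genes were chosen, so they are a description with no p-value. With each diet's mean subtracted, r was 0.958, 0.904 and 0.875. Permuting libraries within diets gave two-sided p-values of 1e-05, 2e-05 and 1e-05 (adjusted p = 3e-05, 4e-05 and 3e-05 over 6 pairs), where 1e-05 is the lowest that 100000 resamples can return, and rho of 0.958, 0.891 and 0.878. Pairs with Fn1 were looser, at an r of 0.572 with Fga, 0.591 with Fgb and 0.527 with Fgg, and rho of 0.685, 0.681 and 0.602. After the diet means were subtracted these r were 0.403, 0.309 and 0.22, with permutation p-values of 0.112, 0.23 and 0.387, none past 0.05. Without SFO 1 and SFO 5, the libraries farthest from the median, the 6 pooled values of r were 0.968, 0.927 and 0.928 among the chains and 0.656, 0.666 and 0.588 with Fn1.

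**Figure D4:**
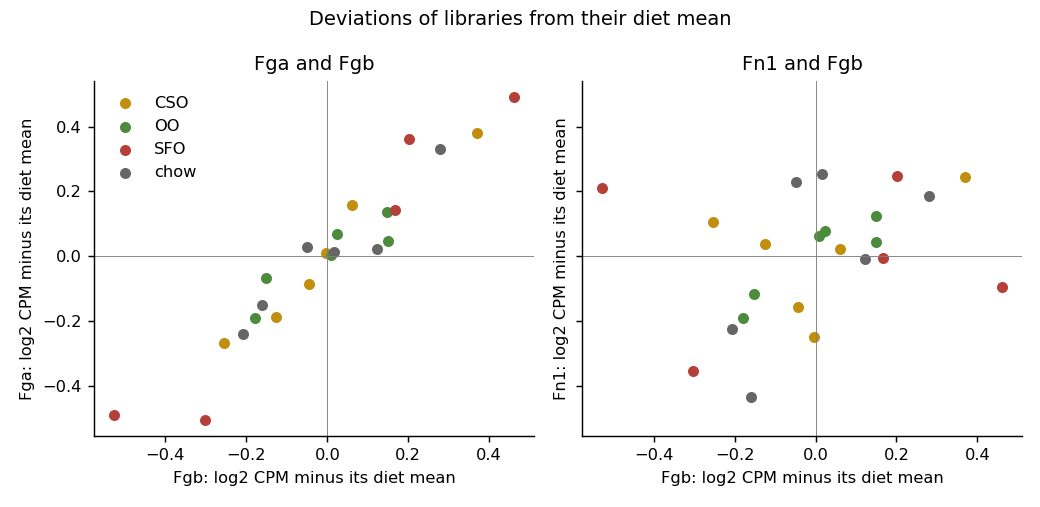
Log2 CPM of Fga (left) and Fn1 (right) against Fgb, each minus the mean of its diet, with 1 point per library coloured by diet. Fga follows Fgb within diets (r = 0.958, 23 libraries), and Fn1 does so much less (r = 0.309).

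The genes whose level over the libraries was most like the mean of the 3 chains came from the 3806 genes whose log2 CPM averaged 5 or more. They were Slc41a2, a magnesium transporter (r = 0.854), Itih3 (0.843) and Itih4 (0.823), heavy chains of the inter-α-trypsin inhibitor family, and Hpx, the heme carrier hemopexin (0.819). Next came Qsox1, an oxidase that forms disulfide bonds (0.819), Hp, the haemoglobin carrier haptoglobin (0.814), Serpina3n, a protease inhibitor (0.807), and Stat3 (0.807). With diet means subtracted these r were 0.734, 0.655, 0.711, 0.642, 0.609, 0.757, 0.758 and 0.688 in the same order. Spearman rho, without that subtraction, was 0.862, 0.762, 0.792, 0.755, 0.79, 0.758, 0.685 and 0.643, lowest for Stat3. Those most like Fn1 were Ldha, a lactate dehydrogenase subunit (0.808), the kinase Nek6 (0.806), the elongation factor Eef2 (0.804), Plg, the plasmin precursor (0.801), and the complement gene C4b (0.798), with 0.254, 0.495, 0.536, 0.511 and 0.379 once diet means were subtracted. Plg was also like the chains, with an r of 0.67 (rank 37 of the 3806 genes) and 0.635 once diet means were subtracted. All of these r are across 23 libraries that share their diets and scaling, and are given as a description.

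Prothrombin and most other clotting factors were not called in the oil diets. Among 14 tested coagulation factors edgeR called none in CSO (1 had an unadjusted p under 0.05, and DESeq2 called 0), 1 in OO and 1 in SFO. The shares of all tested genes called higher were 1.72% in OO and 0.493% in SFO. At an unadjusted p under 0.05 (edgeR), 7 of the 14 were higher and 1 lower in OO, and 3 were higher in SFO. The called genes were Kng1, kininogen, in OO (0.35 ± 0.10, adjusted p = 0.0482) and F11, factor XI, in SFO (0.89 ± 0.22, adjusted p = 0.0285), both higher than in chow. Kng1 was called in 4 of 12 fits without 1 library and F11 in 4 of 11, and without the Acta1 libraries Kng1 (0.38 ± 0.13) and F11 (0.97 ± 0.29) were not called. F2, prothrombin, averaged 2090 ± 204 CPM in CSO, 2380 ± 289 in OO, 2110 ± 202 in SFO and 1970 ± 144 in chow. Its log2 fold changes against chow were 0.09 ± 0.10, 0.27 ± 0.10 and 0.10 ± 0.11 for CSO, OO and SFO, and none was called (adjusted p = 1, 0.129 and 0.941). F13b, the carrier subunit of factor XIII, which cross-links fibrin, differed by 0.05 ± 0.15, 0.31 ± 0.15 and -0.06 ± 0.16 and was not called either. The median log2 fold change of the coagulation factors was 0.07 in CSO, 0.29 in OO and 0.17 in SFO, beside -0.02, 0.07 and 0.01 over all tested genes.

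Among 9 inhibitors of coagulation, edgeR called none in CSO (0 had an unadjusted p under 0.05, and DESeq2 called 0), 2 in OO and 1 in SFO, all higher. Of all tested genes 0.209%, 1.72% and 0.493% were called higher in these diets. Serpind1, heparin cofactor II (0.55 ± 0.13, adjusted p = 0.0184), and Apoh, a phospholipid-binding plasma protein (0.38 ± 0.10, adjusted p = 0.0334), rose in OO. Serpina10, an inhibitor of factors X and XI, rose in SFO by 1.05 ± 0.21 (adjusted p = 0.00237) in the fit. All 5 SFO libraries, from 237 to 483 CPM, lay above the highest chow library at 223 CPM. Without the Acta1 libraries Serpind1 (0.43 ± 0.17), Apoh (0.35 ± 0.14) and Serpina10 (0.88 ± 0.27) were not called. Serpinc1, antithrombin, averaged 2570 ± 240 CPM in SFO and 2600 ± 141 CPM in chow, a difference of -0.02 ± 0.11 (adjusted p = 0.995). It differed by -0.07 ± 0.10 in CSO and 0.28 ± 0.10 in OO (adjusted p = 1 and 0.127).

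Of 10 genes of fibrinolysis, the breakdown of fibrin by plasmin, edgeR called none in CSO (0 had an unadjusted p under 0.05, and DESeq2 called 0), 2 in OO and 1 in SFO. Among all tested genes 0.209%, 1.72% and 0.493% were called higher in these diets. Plg rose in OO to 3670 ± 478 CPM, against 2800 ± 249 CPM in chow (0.39 ± 0.10, adjusted p = 0.0198), and differed by 0.24 ± 0.10 in SFO (adjusted p = 0.496) and 0.09 ± 0.10 in CSO (adjusted p = 1). Serpinf2, the plasmin inhibitor α2-antiplasmin, rose in OO by 0.65 ± 0.13 (adjusted p = 0.00306) and in SFO by 0.53 ± 0.14 (adjusted p = 0.0416). Only the first of these was kept in every fit without 1 library, 12 of 12, and the second in 3 of 11. Without the Acta1 libraries Plg in OO (0.33 ± 0.13) and Serpinf2 in OO (0.54 ± 0.17) and SFO (0.43 ± 0.18) were not called. The vitamin K cycle, needed for several clotting factors but not for fibrinogen, had 1 call among 5 genes, Cyp4f14 in OO (0.60 ± 0.14, adjusted p = 0.015), which was lost without the Acta1 libraries (0.53 ± 0.19).

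In the family of proteins with a fibrinogen-like domain, 1 of 11 tested genes was called against chow, in SFO. In CSO and OO edgeR called none, with 1 and 2 at an unadjusted p under 0.05, and DESeq2 called 0 and 2. Among all tested genes 0.209% were called higher in CSO, 1.72% in OO and 0.493% in SFO. Fgl1, a hepatocyte protein that shares this domain and is not a clot component, had 745, 369, 695, 550 and 138 CPM in SFO 1, 2, 3, 5 and 6, against 94.3 to 190 CPM in chow. It rose by 1.97 ± 0.38 (adjusted p = 0.00905), and SFO 6, which was also low in the chains, lay within the chow range. The difference was 1.75 ± 0.49 and not called once the Acta1 libraries were left out. The differences in OO, 1.11 ± 0.36 (adjusted p = 0.0977), and CSO, 0.90 ± 0.35 (adjusted p = 0.712), were not called. Tnc, the matrix protein tenascin C, was called higher in SFO than in OO, with 120, 0, 38, 38 and 60 counts in the SFO libraries and 0 in each of the 6 OO libraries. Chow libraries had 0 to 46 counts of Tnc. That call held in 7 of 11 fits without 1 library and without the Acta1 libraries.

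Among 20 receptors and partners of fibronectin and fibrinogen, edgeR called 3 higher in OO and none in CSO or SFO, where 3 and 2 had an unadjusted p under 0.05 and DESeq2 called 0. The shares of all tested genes called higher were 1.72% in OO, 0.209% in CSO and 0.493% in SFO, so 0 of 20 is near the share of any genes. Itgb5, a subunit of an integrin that binds vitronectin, rose to 114 ± 41 CPM in OO, against 58.7 ± 11.4 CPM in chow (0.96 ± 0.25, adjusted p = 0.0253). Tgm2, a transglutaminase that cross-links fibronectin, rose by 0.78 ± 0.20 (adjusted p = 0.0273), and Lrp1, an endocytic receptor, by 0.45 ± 0.12 (adjusted p = 0.0335). Itgb5 and Tgm2 were called in 7 of 12 fits without 1 library and Lrp1 in 5 of 12. Without the Acta1 libraries Itgb5 (0.82 ± 0.33), Tgm2 (0.67 ± 0.26) and Lrp1 (0.42 ± 0.16) were not called. Itgb1, the β subunit of the main fibronectin receptor, averaged 241 ± 23.8 CPM in CSO, 277 ± 71.3 in OO, 214 ± 52.5 in SFO and 241 ± 39.6 in chow and was not called. Vtn, vitronectin, differed from chow by -0.07 ± 0.10 in CSO, 0.21 ± 0.10 in OO and 0.22 ± 0.10 in SFO, none called. The summed level of 15 stellate cell markers ranged over 376 to 597 CPM in CSO, 319 to 750 in OO, 397 to 763 in SFO and 434 to 671 in chow. That of 12 endothelial markers ranged over 169 to 404, 158 to 549, 235 to 431 and 315 to 417 CPM, and none of these markers was at 0 throughout a diet. The part of these cells in the Fn1 level was not tested.

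Of the acute phase genes other than fibrinogen, more were called in SFO than in the other oil diets, though the difference in number was not tested. Of 24 tested, 1 was called higher in CSO, 5 in OO and 11 in SFO, and none lower (edgeR; 1, 0 and 0 lower at an unadjusted p under 0.05, and 0 by DESeq2). The counts of higher calls were 0, 0 and 4 without the Acta1 libraries. Their median log2 fold change was 0.14 in CSO, 0.46 in OO and 1.21 in SFO, beside -0.02, 0.07 and 0.01 over all tested genes. Of all tested genes 0.209%, 1.72% and 0.493% were called higher in CSO, OO and SFO. Saa1, a serum amyloid A gene, had 355, 72.3, 501, 219 and 26.3 CPM in SFO 1, 2, 3, 5 and 6, against 2.14 to 6.65 CPM in chow (5.76 ± 0.99, adjusted p = 0.00386). The SFO libraries 1, 3 and 5, which had the highest level of every fibrinogen chain, were also those with the most Saa1. Saa1 shares sequence with other Saa genes, so its separate count is uncertain. Hp rose to 5380 ± 2030 CPM in SFO, against 2120 ± 147 CPM in chow (1.35 ± 0.19, adjusted p = 0.000135), and by 0.65 ± 0.18 in OO (adjusted p = 0.0496). Serpina3n rose by 1.60 ± 0.19 in SFO (adjusted p = 1.96e-07), 0.80 ± 0.18 in OO (adjusted p = 0.0108) and 0.78 ± 0.18 in CSO (adjusted p = 0.0331), the last called in 3 of 12 fits without 1 library. Itih3 rose in SFO (1.12 ± 0.17, adjusted p = 0.000135) and OO (0.61 ± 0.17, adjusted p = 0.0405), and Steap4, a metalloreductase, in SFO (2.15 ± 0.34, adjusted p = 0.000989). Without the Acta1 libraries Serpina3n, Hp and Itih3 were still called in SFO, and Saa1 (5.46 ± 1.45), Steap4 (2.06 ± 0.48) and the OO and CSO calls of these genes were not.

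Stat3, the factor through which interleukin-6 acts on fibrinogen, was called in SFO and was the 1 gene called among 21 of that signalling list. In CSO and OO edgeR called none of the 21, with 1 and 4 at an unadjusted p under 0.05, and DESeq2 called 0 and 2. It had 285, 156, 235, 338 and 137 CPM in SFO 1, 2, 3, 5 and 6, against 92.6 to 141 CPM in chow (1.02 ± 0.21, adjusted p = 0.00477). SFO 6 lay within the chow range, and without SFO 5 or without the Acta1 libraries the call was lost. Socs3, which STAT3 induces and which dampens the pathway, differed in SFO by 1.25 ± 0.55 (adjusted p = 0.515), Il6ra, the interleukin-6 receptor, by -0.68 ± 0.42 (adjusted p = 0.804) and Il6st, the shared signalling subunit, by 0.34 ± 0.26 (adjusted p = 0.879). In OO Il6ra was at 31.6 ± 20.3 CPM, against 78.2 ± 25.4 CPM in chow (-1.30 ± 0.40, adjusted p = 0.0689). Of 16 hepatocyte transcription factors edgeR and DESeq2 called 0 in each oil diet against chow, with 3, 5 and 1 at an unadjusted p under 0.05 in CSO, OO and SFO. Of all tested genes edgeR called 0.209%, 1.72% and 0.493% higher and 0.200%, 0.919% and 0.342% lower in these diets. So 0 of 16, like 0 of 21 above, is near the share of any genes. In SFO, Hnf4a differed by -0.02 ± 0.15, Cebpb by 0.66 ± 0.41 and Cebpd by -0.47 ± 0.85.

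**Figure D5:**
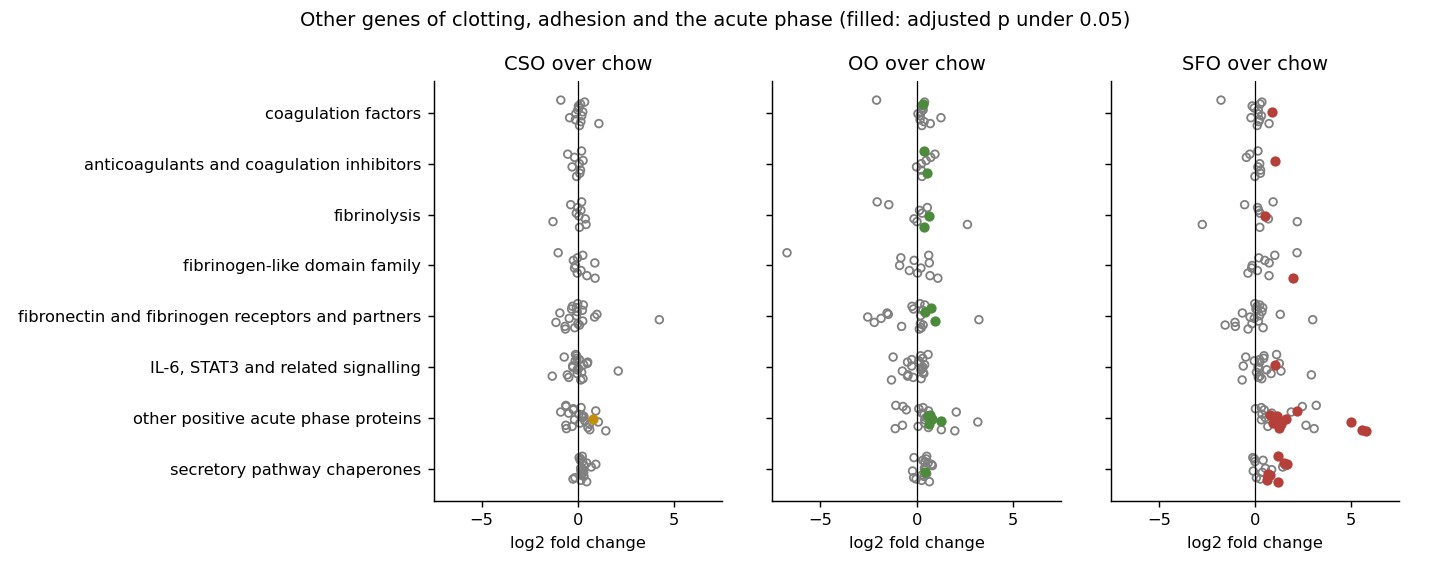
Log2 fold change over chow of the tested genes of 8 lists (rows) in CSO, OO and SFO, without the 4 members. Filled points passed an adjusted p of 0.05 (edgeR), open points did not, and the acute phase list has 1, 5 and 11 filled points, while the coagulation factors have 0, 1 and 1.

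Over all lists together, without the 4 members, 161 genes were tested. Of these, 3 were called higher in CSO against chow, 16 in OO and 25 in SFO (1.86%, 9.94% and 15.5%). Over all tested genes 0.209%, 1.72% and 0.493% were called higher. The lists were chosen with earlier results of these data known, and all tested genes were not matched to them by level. The shares are therefore a description, and the excess was not tested. Of the listed genes edgeR called none lower (6, 9 and 2 at an unadjusted p under 0.05, and 0, 3 and 0 by DESeq2), where 0.200% of tested genes were called lower in CSO, 0.919% in OO and 0.342% in SFO. Without the 4 libraries with Acta1 over 100 CPM the counts were 1 in CSO, none in OO and 5 in SFO, in fits where 14, 26 and 34 genes were called in all. Alb, albumin, whose level depends on the same hepatocytes, averaged 102000 ± 14600 CPM in CSO, 120000 ± 14500 in OO, 99200 ± 16600 in SFO and 101000 ± 11000 in chow, with differences of 0.01 ± 0.10, 0.24 ± 0.10 and -0.03 ± 0.10 that were not called.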

How the data were processed

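The submitters' processing notes list Trimmomatic, STAR 2.7.1a, HTSeq 0.9.1, DESeq2 and DESeq as tools and mm39 as the genome build. What the authors deposited is a table of raw read counts for each gene in 23 libraries, and 3 tables that set chow against an oil diet. Those deposited tables hold a log2 fold change and its SE, a score (the Wald statistic), p-values and a signal (a mean normalized level). How strand was treated in counting is not stated. The labels name 24 samples.

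The counts were fitted with edgeR 4.0.16 in R 4.3.3 (filterByExpr, 11971 genes holding 99.91% of counts; TMM; diet as the only term; robust quasi-likelihood F test; Benjamini-Hochberg adjustment, threshold 0.05). Log2 CPM used a prior count of 2. Correlations used 100000 permutations (Python 3.11.15, scipy 1.17.1). Other settings were DESeq2 1.42.0, its size factors in edgeR, library totals, other filters, only the diets compared, the replicate number as a block, no library with Acta1 over 100 CPM, and each library left out.

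The members and lists were chosen with earlier results of these data known. Genes were named by a rule: a set of clotting, acute phase and regulator genes whatever their result, up to 4 called genes per list, the 8 and 5 genes most like the chains and Fn1, and chromosomal neighbours; some of the genes that met it are not reported here. Genes that share sequence, such as the Saa genes, have uncertain separate counts. The procedures were tested on simulated data. Promoter sequences are from RefSeq GRCm38.p6, a build that differs from mm39, so no coordinate was joined to the counts. Counting intervals cover counting error only.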

Additional observations from a re-analysis of the deposited data

How the results depend on the processing

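The member fold changes moved by less than the spread between libraries in all 468 alternative values, and the ratios between members in all 81. Only the chains in CSO against chow, none of them called, changed sign, with ranges of -0.17 to 0.06 (Fga), -0.05 to 0.14 (Fgb) and -0.13 to 0.001 (Fgg). Calls of members that changed are given with each comparison, except that Fga in CSO against OO was called (-0.43) and Fgg in SFO against OO was not (0.49) when only those 2 diets were fitted. The correlations of Fn1 with Fga, Fgb and Fgg fell to an r of 0.403, 0.309 and 0.22 once each diet's mean was subtracted. Of the listed genes, 3, 16 and 25 were called in CSO, OO and SFO against chow. These counts were 3 in OO with library totals, 6 in CSO and 10 in OO when only the 2 diets compared were fitted, and 1, 0 and 5 without the 4 Acta1 libraries, where fewer samples were left. DESeq2's Wald test called 4, 22 and 29. With 1 library left out they ran from 1 to 3 in CSO, 6 to 23 in OO and 11 to 22 in SFO. In CSO the count was 1 without chow 3 or CSO 4. In OO it was 9 without chow 2 or OO 3, 6 without chow 4 and 7 without chow 5. In SFO it was 14, 15 and 12 without chow 2, 4 and 5, 12 without SFO 1 and 11 without SFO 5. Where a cause is not named, the cause was not tested. Replicate numbers are shared between diets only as numbers: deviations of same-numbered libraries correlated at -0.101 to 0.035 over 33 pairs, so they do not pair the libraries, and the fit with a replicate block called 4, 12 and 20 listed genes. Under the block Fga was called in OO against chow (0.43), Fga and Fgb in CSO against OO (-0.45 and -0.42), and Fgg in SFO against OO was not (0.44). Depth limits Tnc, not the members.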

Other observations

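Some genes of the secretory pathway, through which fibrinogen is folded and disulfide-bonded, were called higher in SFO. Of 20 chaperone genes 8 were called higher in SFO against chow, 1 in OO and none in CSO (edgeR; 3 had an unadjusted p under 0.05 in CSO, and DESeq2 called 0). The shares of all tested genes called higher were 0.493% in SFO, 1.72% in OO and 0.209% in CSO. Dnajb9, Lman1, Sec24d and Sel1l averaged 51.6, 252, 102 and 198 CPM in SFO, against 55.5, 255, 105 and 216 CPM in chow. Syvn1, a ubiquitin ligase of the endoplasmic reticulum, rose by 1.197 ± 0.257 (edgeR, adjusted p = 0.00668), Manf by 1.48 ± 0.34 (adjusted p = 0.0127), Pdia4, a disulfide isomerase, by 0.76 ± 0.18 (adjusted p = 0.0184) and Creld2 by 1.65 ± 0.40 (adjusted p = 0.0288). These were called in 9, 7, 6 and 3 of 11 fits without 1 library, and none without the Acta1 libraries. In SFO 3, which was high in the chains, the same genes had 69.5, 38.1, 225 and 22.7 CPM, each within the chow range. SFO 6, which was low in the chains, had 89.8, 152, 461 and 91.9 CPM. Among negative acute phase genes, which fall in classical inflammation, edgeR and DESeq2 called 0 of 11 lower in each oil diet against chow (1, 1 and 0 at an unadjusted p under 0.05 in CSO, OO and SFO). Over all tested genes 0.200%, 0.919% and 0.342% were called lower, so 0 of 11 is near the share of any genes. At an unadjusted p under 0.05 (edgeR), 3, 6 and 3 of the 11 were higher in CSO, OO and SFO. Apoa1, the main protein of high-density lipoprotein, rose by 0.50 ± 0.10 in CSO, 0.50 ± 0.10 in OO and 0.56 ± 0.10 in SFO (adjusted p = 0.00458, 0.00213 and 0.000832). Rbp4, the retinol carrier, rose in CSO (0.55 ± 0.12, adjusted p = 0.0145). Trf, transferrin, was lower in CSO than in OO (-0.38 ± 0.10, adjusted p = 0.0312). Without the Acta1 libraries Apoa1 was still called in CSO (0.59 ± 0.13) and SFO (0.59 ± 0.13), and Apoa1 in OO (0.53 ± 0.12), Rbp4 in CSO (0.58 ± 0.16) and Trf (-0.35 ± 0.10) were not.

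The genes that flank the members on their chromosomes, by the order of a reference of another build, were measured at far lower levels. Beside the fibrinogen cluster these were Lrat, Map9, Plrg1, Tlr2 and Tmem131l, with mean levels of 13.3, 1.84, 28.5, 3.2 and 44.2 CPM, and edgeR and DESeq2 called 0 of the 5 in each oil diet against chow (1, 1 and 0 at an unadjusted p under 0.05). In that order their log2 fold changes were -0.485 ± 0.647, 2.38 ± 1.54, 1.10 ± 0.39, 0.25 ± 1.36 and 0.50 ± 0.37 in OO. In SFO they were 1.05 ± 0.67, 1.25 ± 1.55, 0.18 ± 0.40, -0.20 ± 1.43 and 0.05 ± 0.39. Over all tested genes 1.72% were called higher in OO and 0.493% in SFO. With such shares and SE this wide, 0 calls do not show that these 5 genes were unchanged. Rbm46 there and Ikzf2 beside Fn1 were not tested. Beside Fn1 were Atic, Erbb4, Mreg, Pecr and Xrcc5, and Pecr, a peroxisomal reductase of fatty acid elongation at a mean of 184 CPM, was called higher in OO (0.68 ± 0.17, adjusted p = 0.0205) but not without the Acta1 libraries (0.68 ± 0.23).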
